A study of Homo sapiens with 36 samples.

Results

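The genes described here break down haem or move and store iron, or, in the case of BACH1, repress such genes. They are HMOX1, HMOX2, BLVRA, BLVRB, FTL, FTH1, TFRC, BACH1 and SLC11A2. They were chosen by name, with earlier results of these data known. All 12 probes that the bead table assigns to these 9 genes were taken, FTL having 2 and BACH1 3. A probe counted as detected on an array when its detection p-value, which compares it with the negative control beads of that array, was under 0.05, and probes detected on at least 6 arrays were tested. By that rule 9 of the 12 probes and 8 of the 9 genes were tested, among 22612 probes and 16090 named genes in all, and the 3 BACH1 probes were not.

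RNA from 2 human cell lines was measured on Illumina bead arrays, 1 sample per array. DLD-1 cells are epithelial and derive from a tumour of the large bowel, and Jurkat cells are leukaemic T cells. In each line 12 arrays held untreated control cells and 6 held cells exposed to cigarette smoke extract (CSE), an aqueous extract of smoke, at 20% for 2 to 6 h. The exposure time of a single sample is not given, and no label says that samples of 1 group were cultured separately, so that p-values measure only the spread among the samples at hand, which may be technical. No group carries a genetic change made for the study, and each line stands for its tissue only as a tumour-derived culture.

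Haem oxygenase opens the haem ring and releases iron, carbon monoxide and biliverdin. HMOX1 encodes the form induced by haem, oxidants and electrophiles, and HMOX2 the constitutive form. Biliverdin reductases, encoded by BLVRA and BLVRB, turn biliverdin into bilirubin, and BLVRB also reduces flavins. Released iron is stored in ferritin, a shell of light (FTL) and heavy (FTH1) chains, of which the heavy chain oxidises iron. TFRC encodes the transferrin receptor, through which cells take up transferrin-bound iron, and SLC11A2 encodes the divalent metal transporter DMT1, which carries ferrous iron across the membrane of the endosome or of the gut lumen. BACH1 is a haem-binding repressor that competes with the activator NRF2 for the antioxidant response elements of HMOX1 and the ferritin genes. Iron regulatory proteins bind a stem-loop, the iron-responsive element, in ferritin messages to block their translation, and in the TFRC message to stabilise it.

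The promoters of BLVRB and FTL are shown because these genes rose together in Jurkat cells. They run from base -250 to base -1 before the RefSeq start of transcription (GRCh38.p14), BLVRB at chr19:40465746-40465995 on the minus strand and FTL at chr19:48965059-48965308 on the plus strand. Capitals mark GCGTG, the core that the aryl hydrocarbon receptor binds, or its reverse complement.
BLVRB promoter: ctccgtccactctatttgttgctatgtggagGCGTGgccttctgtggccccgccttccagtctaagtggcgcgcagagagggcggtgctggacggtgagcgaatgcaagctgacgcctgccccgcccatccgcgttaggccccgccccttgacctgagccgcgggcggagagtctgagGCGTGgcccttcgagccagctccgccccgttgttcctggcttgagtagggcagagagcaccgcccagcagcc
FTL promoter: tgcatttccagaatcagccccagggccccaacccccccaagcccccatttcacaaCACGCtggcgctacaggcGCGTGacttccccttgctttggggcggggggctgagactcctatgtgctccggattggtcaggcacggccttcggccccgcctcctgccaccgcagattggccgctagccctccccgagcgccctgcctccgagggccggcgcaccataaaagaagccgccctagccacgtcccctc
Each of these stretches holds 2 matches. GCGTG was found on either strand in 7 of the 13 RefSeq promoter entries of 7 member genes (all but HMOX1 and FTH1), each 300 bases long with 50 bases past the start, and in 36.5% of 35116 promoters of the same length. TGANNNNGC, the core of the antioxidant response element, was found on either strand in 3 of the 13 entries and in 41.8% of all promoters. Neither of the printed stretches holds TGANNNNGC, so the motifs do not overlap there. Of the FTL transcript, bases 25 to 50 are shown (chr19:48965333-48965358, plus strand), which hold part of its iron-responsive element, with CAGTG, the letters of the loop, in capitals.
FTL bases 25 to 50: gtctcttgcttcaaCAGTGtttggac
Searched on the transcript strand of the first 50 transcribed bases, CAGTG was in 1 of the 13 entries, that of FTL, and in 6.48% of all promoters (12.2% on either strand). A match describes letters and is not evidence of binding.

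Between 16012 and 19131 of 47323 probes were detected per array, and the array medians of bead intensity were 97.2 to 121. Precision is limited by how many arrays there are. Of 10 epithelial markers, 8 were detected on every control DLD-1 array and 9 on every DLD-1 CSE array, and of 10 T cell markers 9 were detected on every control Jurkat array and 8 on every Jurkat CSE array. Of 8 erythroid and 6 fibroblast markers, none was detected on every array of any group. Of 6 monocyte or macrophage markers, 3 were detected on every control DLD-1 array and 2 on every array of each other group, with a summed intensity of 727.8 to 949.3 in DLD-1 and 1995.3 to 3763.9 in Jurkat. Of 4 B cell markers, none was detected on every array of either DLD-1 group and 1 on every Jurkat array, with sums of 386.0 to 454.0 and 495.7 to 948.8. The part of these markers in the results was not tested. Jurkat control replicate 7 carries a cell line field that names DLD-1. Its epithelial markers summed to an intensity of 1323 (DLD-1 arrays 27671 to 40122, other Jurkat arrays 1028 to 1316) and its T cell markers to 17879 (other Jurkat arrays 12343 to 26100), so it was kept as Jurkat, and no tested member's call changed without it other than that of 1 FTL probe, given below. The arrays sit on 3 BeadChips of 12, which hold 3, 4 and 5 control and 2, 3 and 1 CSE arrays of DLD-1, and 4, 4 and 4 control and 3, 1 and 2 CSE arrays of Jurkat.

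In DLD-1 cells CSE raised HMOX1 alone among the 9 tested member probes, and 8 did not pass the test. In Jurkat cells 4 of the 9 passed: BLVRB and both FTL probes rose, and SLC11A2 fell. Over all tested probes 3.69% passed in DLD-1 and 18.2% in Jurkat. The median log2 difference of the 9 member probes was 0.22 in DLD-1 and 0.31 in Jurkat, beside -0.0034 and 0.02 over all tested probes. Values below are normalized log2 intensities, changes are differences of group means on that scale (6 CSE against 12 control arrays) with a standard error (SE), and adjusted p-values are from limma with Benjamini-Hochberg adjustment over all 22612 probes. CSE effects are compared between the lines through each line's own controls, and levels without CSE by the difference of the control means. Apart from the FTL probes, which measure the same gene, no probe's level is set against another's.

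**Figure D1:**
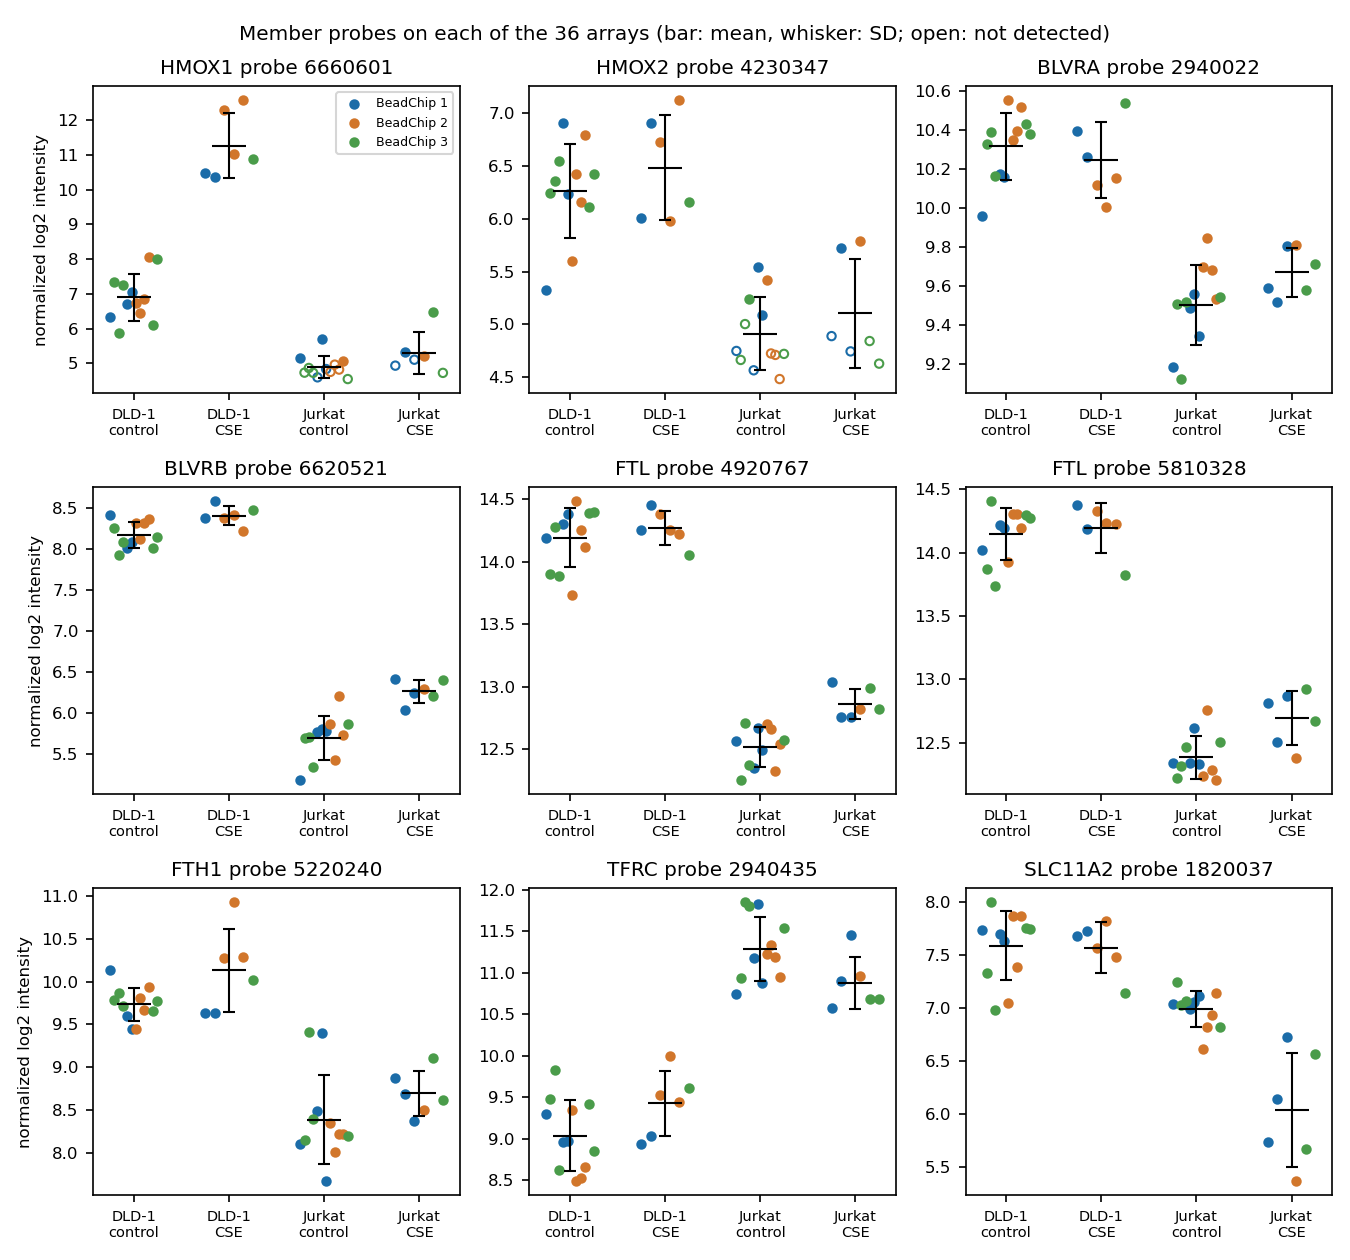
Normalized log2 intensity (y axis) of each tested member probe on the 36 arrays, by group (x axis). Points are arrays coloured by BeadChip, open points are arrays without detection, bars are group means and whiskers SDs. HMOX1 on the 6 DLD-1 CSE arrays lies between 10.35 and 12.59, above all 12 controls, and the scale of the y axis differs between panels.

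HMOX1 had the largest CSE effect of the 9 tested member probes and was detected on all 18 DLD-1 arrays. On the 12 control DLD-1 arrays it had a lowest value of 5.86, a median of 6.79 and a highest value of 8.07 (mean 6.90 ± 0.69, SD, n = 12). On the DLD-1 CSE arrays it stood at 10.48 and 10.35 on BeadChip 1, at 12.29, 11.03 and 12.59 on BeadChip 2, and at 10.87 on BeadChip 3 (mean 11.27 ± 0.94, SD, n = 6). Every CSE array lay above every control array, and 2 of the BeadChip 2 arrays stood above the rest. The rise was 4.37 (SE 0.29, 20.7-fold, adjusted p = 5.9e-14), the third largest rise and the second smallest p among all tested probes. An exact permutation test over the arrays gave a two-sided p of 0.000108, the smallest that 18564 splits can give. Within BeadChips 1, 2 and 3 the rise was 3.71, 4.95 and 3.96, where the last rests on 1 CSE array (adjusted p = 0.15). In these bulk extracts, a change in how many cells carry a transcript and a change in its amount per cell cannot be told apart.

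In Jurkat cells HMOX1 was near background. It was detected on 3 of 12 control arrays, with a lowest value of 4.54, a median of 4.82 and a highest value of 5.70, and on 3 of 6 CSE arrays, with 4.93, 5.34, 5.10, 5.22, 6.47 and 4.72. The groups overlapped, with 1 CSE array above all controls. The difference was 0.40 (SE 0.29, 95% interval -0.18 to 0.99, adjusted p = 0.39), and 0.05, 0.32 and 0.88 within BeadChips 1, 2 and 3. Without Jurkat CSE replicate 5 it was 0.17 (adjusted p = 0.79). The effect of CSE on HMOX1 differed between the lines by 3.97 (SE 0.41, adjusted p = 4.3e-08), where 5.59% of all tested probes passed. Within BeadChips 1, 2 and 3 this difference was 3.66, 4.63 and 3.08, the last not passing (adjusted p = 0.47).

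HMOX2, the constitutive haem oxygenase, did not pass in either line. It was detected on all 18 DLD-1 arrays, between 5.33 and 6.90 in controls (median 6.30) and between 5.98 and 7.12 with CSE (median 6.44). In Jurkat cells it was detected on 4 of 12 control and 2 of 6 CSE arrays, between 4.48 and 5.55 (median 4.74) and between 4.63 and 5.79 (median 4.87). The groups overlapped in both lines. The differences were 0.22 (95% interval -0.19 to 0.64) in DLD-1 and 0.19 (-0.22 to 0.61) in Jurkat, with adjusted p-values of 0.70 and 0.60.

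The biliverdin reductases differed from each other in what passed. BLVRA lay between 9.96 and 10.55 on control DLD-1 arrays and between 10.005 and 10.54 with CSE, a difference of -0.07 (95% interval -0.28 to 0.14, adjusted p = 0.85). On Jurkat arrays it lay between 9.12 and 9.84 in controls and between 9.52 and 9.81 with CSE, a difference of 0.17 (-0.04 to 0.38, adjusted p = 0.29). The groups overlapped in both lines.

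BLVRB rose in Jurkat cells. Its 12 control values had a lowest of 5.19, a median of 5.76 and a highest of 6.21 (mean 5.70 ± 0.27, SD, n = 12), and the CSE values were 6.42, 6.04, 6.25, 6.29, 6.22 and 6.41 (mean 6.27 ± 0.14, SD, n = 6). Of the 6 CSE arrays, 5 lay above all controls, and 11 of the 12 controls lay below all CSE arrays. The rise was 0.57 (SE 0.11, 1.48-fold, adjusted p = 1.8e-04, exact permutation p = 0.000216). Within BeadChips 1, 2 and 3 it was 0.59, 0.48 and 0.65, with no adjusted p under 0.05 (0.11, 0.44 and 0.092). In the authors' normalized values it was 0.20 (adjusted p = 0.0029), and with median scaling 0.36 (adjusted p = 0.037).

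In DLD-1 cells BLVRB lay between 7.93 and 8.41 in controls (median 8.14) and between 8.22 and 8.58 with CSE (median 8.39). Here 7 of 12 controls lay below all CSE arrays and 2 of 6 CSE arrays above all controls. The difference was 0.24 (SE 0.11, adjusted p = 0.27, unadjusted exact permutation p = 0.0059), and it passed only in the authors' normalized values among the settings fitted across all probes (0.17, adjusted p = 0.033). The effect of CSE on BLVRB was not shown to differ between the lines (-0.33, 95% interval -0.64 to -0.02, adjusted p = 0.22).

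The ferritin light chain was measured by probes 4920767 and 5810328, which differed by a median of 0.12 and at most 0.46 on an array. In Jurkat cells probe 4920767 lay between 12.25 and 12.71 in controls (median 12.56) and stood at 13.03, 12.76, 12.76, 12.82, 12.99 and 12.82 with CSE. The groups did not overlap. The rise was 0.35 (SE 0.10, 1.27-fold, adjusted p = 0.016), with an exact permutation p of 0.000108, the smallest the splits can give, and 0.33, 0.26 and 0.43 within BeadChips, where no adjusted p was under 0.05 (0.31, 0.73 and 0.32). Without Jurkat CSE replicate 1 it was 0.31 and did not pass (adjusted p = 0.053).

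Probe 5810328 lay between 12.21 and 12.76 in Jurkat controls (median 12.34) and at 12.81, 12.50, 12.87, 12.38, 12.92 and 12.67 with CSE. Here 3 of 6 CSE arrays lay above all controls. The rise was 0.31 (SE 0.11, adjusted p = 0.041, exact permutation p = 0.0083). It missed the threshold with BeadChip fitted as a block (0.30, adjusted p = 0.051), with median scaling (0.36, adjusted p = 0.073) or without any 1 of 12 Jurkat arrays: CSE replicates 1, 3, 5 and 6 and control replicates 1, 2, 4, 5, 7, 8, 10 and 11 (adjusted p up to 0.12). Within BeadChips 1, 2 and 3 it was 0.32, 0.01 and 0.42, none passing.

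In DLD-1 cells neither FTL probe passed. Probe 4920767 lay between 13.74 and 14.48 in controls and between 14.05 and 14.45 with CSE (difference 0.08, 95% interval -0.13 to 0.29, adjusted p = 0.83). Probe 5810328 lay between 13.74 and 14.41 in controls and between 13.82 and 14.38 with CSE (0.05, -0.17 to 0.27, adjusted p = 0.91). The effects of CSE on FTL were not shown to differ between the lines (-0.27 and -0.26, adjusted p = 0.31 and 0.36). On control DLD-1 arrays probe 4920767 ranked between 2 and 246 by bead intensity, and probe 5810328 between 6 and 245. Before normalization, median bead intensity in DLD-1 was 18946.4 in controls and 21805.4 with CSE for probe 4920767. For probe 5810328 it was 18520.5 and 21526.6. Whether the top of the intensity scale limits a rise of FTL in DLD-1 was not tested.

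The ferritin heavy chain, FTH1, did not pass in either line. In DLD-1 cells it lay between 9.45 and 10.13 in controls (median 9.74) and stood at 9.64 and 9.63 with CSE on BeadChip 1, at 10.28, 10.93 and 10.29 on BeadChip 2 and at 10.01 on BeadChip 3. The 3 BeadChip 2 arrays lay above all controls and the other CSE arrays among them. The difference was 0.39 (SE 0.19, 95% interval 0.01 to 0.77, adjusted p = 0.29, unadjusted exact permutation p = 0.031), and -0.09, 0.79 and 0.25 within BeadChips 1, 2 and 3, of which the second passed (adjusted p = 0.042).

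In Jurkat cells FTH1 lay between 7.67 and 9.41 in controls (median 8.22) and between 8.38 and 9.11 with CSE (median 8.65). Control replicates 3 and 11, at 9.40 and 9.41, lay above all CSE arrays, and the other 10 controls did not exceed 8.49. The difference was 0.31 (SE 0.19, 95% interval -0.07 to 0.69, adjusted p = 0.28). A probe for FTH1 may also bind RNA of its many near-identical copies, so that its level is uncertain as that of 1 gene. Of 15 further probes that the table assigns to ferritin heavy chain-like entries, 11 were tested, and none passed with CSE in either line (differences between -0.10 and 0.46, adjusted p between 0.13 and 0.98).

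The transferrin receptor gene, TFRC, did not pass in either line. In DLD-1 cells it lay between 8.49 and 9.83 in controls (median 8.96) and stood at 8.94 and 9.04 with CSE on BeadChip 1, at 9.52, 9.997 and 9.45 on BeadChip 2 and at 9.62 on BeadChip 3. The array with the highest value was the one highest for FTH1. The difference was 0.39 (SE 0.19, adjusted p = 0.30), and -0.09, 0.90 and 0.37 within BeadChips 1, 2 and 3, of which the second passed (adjusted p = 0.039).

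In Jurkat cells TFRC lay between 10.75 and 11.85 in controls (median 11.21) and stood at 10.58, 10.91, 11.45, 10.97, 10.68 and 10.68 with CSE. Of the 6 CSE arrays, 3 lay below all controls. The difference was -0.41 (SE 0.19, 95% interval -0.79 to -0.03, adjusted p = 0.13, unadjusted exact permutation p = 0.036). The effect of CSE on TFRC differed between the lines by 0.80 (SE 0.27), which did not pass (adjusted p = 0.066). It passed when any 1 of 5 arrays was left out, DLD-1 CSE replicate 1 or 2, DLD-1 control replicate 11, Jurkat control replicate 1 or Jurkat CSE replicate 3 (0.85 to 0.91, adjusted p down to 0.035).

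SLC11A2, the ferrous iron transporter gene, fell in Jurkat cells. Its control values had a lowest of 6.62, a median of 7.04 and a highest of 7.24 (mean 6.99 ± 0.17, SD, n = 12). The CSE values were 5.74, 6.15 and 6.73 on BeadChip 1, 5.37 on BeadChip 2, and 5.67 and 6.57 on BeadChip 3 (mean 6.04 ± 0.54, SD, n = 6). Of the 6 CSE arrays, 5 lay below all controls, and they were more spread out than the controls. It fell by 0.95 (SE 0.16, 1.94-fold, adjusted p = 1.6e-05), with an exact permutation p of 0.000216. Within BeadChips 1, 2 and 3 the difference was -0.84, -1.51 and -0.93, of which the first and the second passed (adjusted p = 0.026 and 0.022) and the third did not (0.10). It was -0.40 in the authors' normalized values (adjusted p = 2.6e-04) and -0.48 without background correction (adjusted p = 1.5e-04).

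In DLD-1 cells SLC11A2 lay between 6.99 and 8.001 in controls (median 7.71) and between 7.14 and 7.82 with CSE (median 7.63), with overlapping groups. The difference was -0.02 (95% interval -0.33 to 0.30, adjusted p = 0.99). The effect of CSE on SLC11A2 differed between the lines by 0.94 (SE 0.22, adjusted p = 0.0090). This difference was 0.86, 1.59 and 0.50 within BeadChips, none passing (adjusted p = 0.48, 0.070 and 0.87), and 0.39 in the authors' normalized values (adjusted p = 0.031). HMOX1 and SLC11A2 were the 2 of 9 member probes whose CSE effect differed between the lines, beside the 5.59% of all tested probes.

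**Figure D2:**
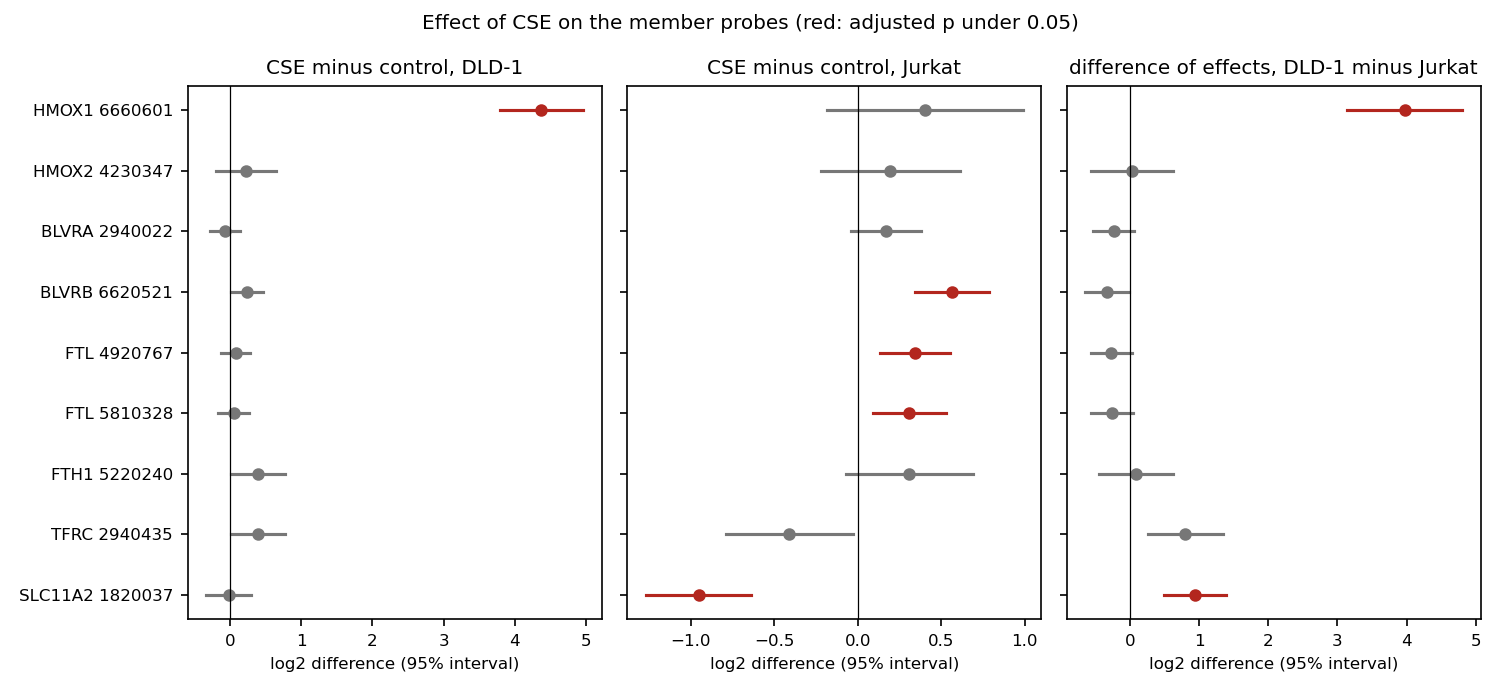
Log2 difference (x axis) of each tested member probe (y axis) for CSE against control in each line, and for the DLD-1 effect minus the Jurkat effect. Points are estimates and lines 95% intervals, with adjusted p under 0.05 in red: HMOX1 at 4.37 in DLD-1, BLVRB and both FTL probes above 0 and SLC11A2 at -0.95 in Jurkat.

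**Figure D3:**
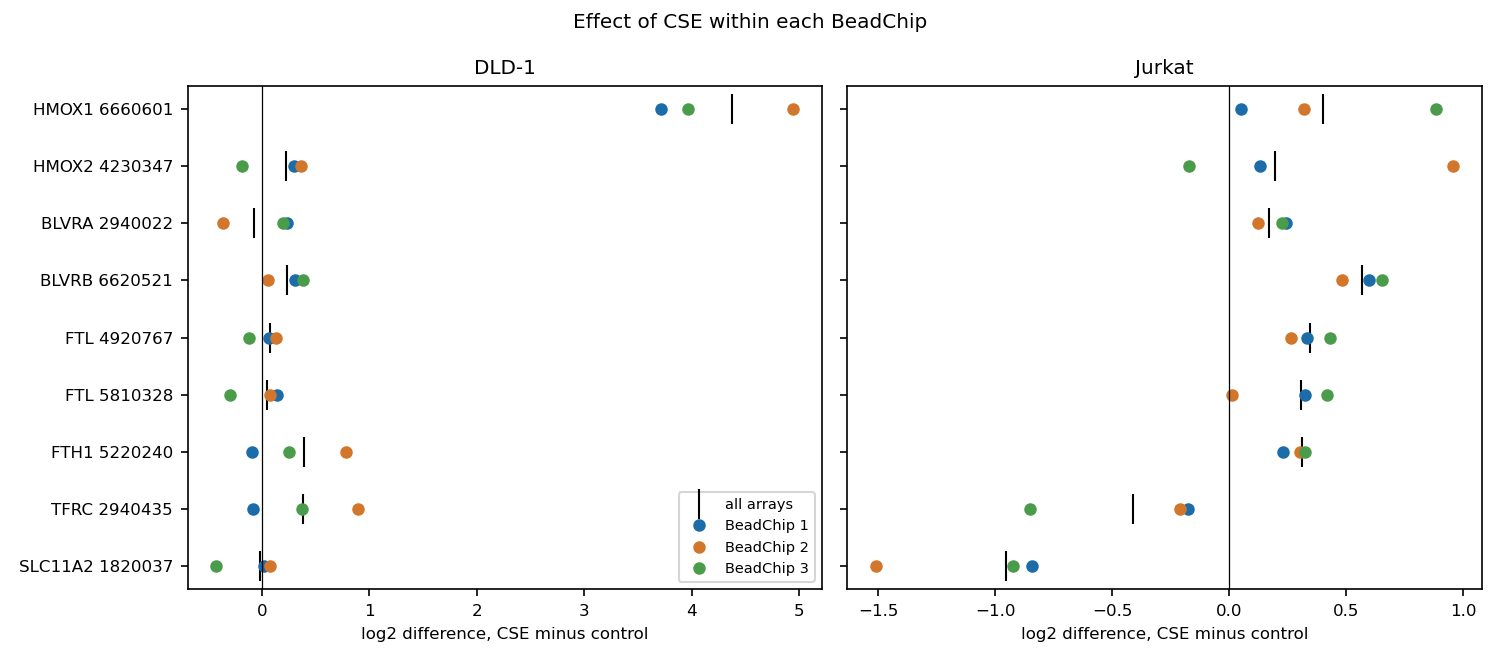
Log2 difference of CSE against control (x axis) for each tested member probe (y axis), over all arrays (black bar) and within each BeadChip (points), with x axes that differ between the lines. HMOX1 in DLD-1 lies at 3.71, 4.95 and 3.96, and FTH1 and TFRC in DLD-1 lie at 0.79 and 0.90 on BeadChip 2 and at -0.09 on BeadChip 1.

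BACH1, the haem-responsive repressor, was not measured well enough to be tested. Its 3 probes were detected on 0, 0 and 1 of 36 arrays and were not well above background in any group, so no fold is given. The single detection was on a control Jurkat array.

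Without CSE, all 9 tested member probes differed between the lines, where 60.0% of all tested probes did, and their median difference was 1.35 beside -0.04 over all probes. Of the 9, 8 were higher in DLD-1. For HMOX1 the difference of control DLD-1 minus control Jurkat was 2.00 (SE 0.24, adjusted p = 1.1e-09), with Jurkat detection on 3 of 12 arrays, and for HMOX2 it was 1.35 (SE 0.17, adjusted p = 3.8e-09), with detection on 4 of 12. BLVRB differed by 2.47 (SE 0.09, 5.53-fold, adjusted p = 6.0e-26) and BLVRA by 0.81 (SE 0.08, adjusted p = 3.7e-11). No control DLD-1 array overlapped a control Jurkat array for HMOX1, BLVRA, BLVRB, either FTL probe, FTH1 or TFRC. How many of all tested probes separate the lines in this way was not counted, so the separation is not shown to be particular to these genes.

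The FTL probes were higher in control DLD-1 cells by 1.67 and 1.76 (SE 0.08 and 0.09, adjusted p = 7.3e-21 and 5.9e-21) and FTH1 by 1.35 (SE 0.15, adjusted p = 3.8e-10). SLC11A2 was higher by 0.60 (SE 0.13, adjusted p = 8.6e-05). TFRC ran the other way. Its control values were 9.04 ± 0.43 in DLD-1 and 11.29 ± 0.39 in Jurkat (SD, n = 12 each), a difference of -2.25 (SE 0.15, 4.76-fold lower in DLD-1, adjusted p = 1.6e-16). In the authors' normalized values the differences were smaller for HMOX1 (0.75), HMOX2 (0.44), BLVRB (1.26) and SLC11A2 (0.35), each still passing.

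Further genes of the same processes, each by its brightest tested probe, were taken from lists. Over all 16090 named genes, 1.75% rose and 2.31% fell in DLD-1, and 7.96% rose and 11.4% fell in Jurkat. Of 9 genes of haem synthesis, none passed in DLD-1 (list median -0.14) and 2 rose in Jurkat (list median 0.19). These were PPOX, which oxidises protoporphyrinogen (0.57, SE 0.16, adjusted p = 0.0082), and ALAS1, which starts the pathway (0.60, SE 0.22, adjusted p = 0.048). Of 8 measured genes of haem transport and binding, none passed in DLD-1 and HEBP1, a haem-binding protein, rose in Jurkat (0.42, SE 0.14, adjusted p = 0.036). POR, the reductase that passes electrons to haem oxygenase, rose in Jurkat (0.44, SE 0.12, adjusted p = 0.010), 1 of 2 measured partners of haem breakdown. With median scaling PPOX, ALAS1, HEBP1 and POR did not pass (0.35, 0.39, 0.32 and 0.22), and the call of ALAS1 was also lost in 19 of 36 fits without 1 array and that of HEBP1 in 8. ALAS1 and HEBP1 also failed without the detection filter (adjusted p = 0.10 and 0.059) and with each line fitted alone (adjusted p = 0.088 and 0.13).

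Of 11 measured genes of iron uptake, transport and export, none passed in DLD-1 (list median -0.0005), and 1 rose and 2 fell in Jurkat (list median -0.17). SLC40A1, the iron exporter ferroportin, fell by 1.33 in Jurkat (SE 0.15, 2.52-fold, adjusted p = 1.7e-08), from 6.99 ± 0.38 (SD, n = 12, all detected) to 5.66 ± 0.52 (SD, n = 6, 5 detected). Within BeadChips 1, 2 and 3 the difference was -1.12, -1.94 and -1.48, and in the authors' normalized values -0.54. Its other tested probe gave -0.35 (adjusted p = 0.11). In DLD-1 the probe was not well above background on any array, so the lines are not compared. The mitochondrial iron carriers moved apart in Jurkat: SLC25A28 rose by 0.52 (SE 0.12, adjusted p = 9.7e-04) and SLC25A37 fell by 0.59 (SE 0.17, adjusted p = 0.011), the latter not passing without Jurkat CSE replicate 1 (-0.48, adjusted p = 0.060).

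None of 3 measured genes of iron storage and chaperones passed in either line. Of 3 iron sensing genes, none passed in DLD-1 and IREB2, which encodes an iron regulatory protein, fell by 0.63 in Jurkat (SE 0.18, adjusted p = 0.010), with -0.24 in the authors' normalized values. Of 20 measured genes of iron-sulphur cluster assembly, none passed in DLD-1 and 3 rose and 1 fell in Jurkat. CIAO1, of the cytosolic assembly machinery, fell by 0.77 (SE 0.13, adjusted p = 1.5e-05), and its other probe gave -0.38 (adjusted p = 0.047). CIAO3, of the same machinery, rose by 0.51, the mitochondrial scaffold gene NFU1 by 0.39 and NUBP2, a cytosolic scaffold gene, by 0.47 (SE 0.16, 0.13 and 0.16, adjusted p = 0.018, 0.033 and 0.033). With median scaling these 3 did not pass (0.34, 0.30 and 0.25), and CIAO3 also failed without Jurkat CSE replicate 1 (0.47, adjusted p = 0.055), NFU1 in 5 and NUBP2 in 9 of 36 fits without 1 array. NFU1 and NUBP2 also failed with each line fitted alone (adjusted p = 0.062 and 0.074), and NUBP2 without the detection filter (adjusted p = 0.060).

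The list of BACH1 and NRF2 partners and shared targets held 13 measured genes, of which 6 rose and none fell in DLD-1 (list median 0.66), while none rose and 2 fell in Jurkat (list median -0.14). This list overlaps antioxidant genes already known to rise in these data and is not independent evidence of its direction. SRXN1, which encodes sulfiredoxin, rose by 1.71 in DLD-1 (SE 0.25, adjusted p = 3.6e-05) and GCLM, the modifier subunit of glutamate-cysteine ligase, by 1.77 (SE 0.28, adjusted p = 1.1e-04). MAFG, a small Maf partner of both factors, rose by 1.42 (SE 0.26, adjusted p = 6.4e-04) and the cystine transporter gene SLC7A11 by 1.60 (SE 0.31, adjusted p = 0.0011), the latter detected on 4 of 12 control and 5 of 6 CSE arrays.

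These rises were uneven over BeadChips 1, 2 and 3. SRXN1 gave 0.67, 2.48 and 0.91, and GCLM 0.56, 3.04 and 0.69. MAFG gave 0.05, 2.42 and 0.85, and SLC7A11 0.59, 3.03 and -0.28. BeadChip 2 held the highest value for each, and what set it apart was not tested. In Jurkat BACH2, a repressor related to BACH1, fell by 1.06 (SE 0.18, adjusted p = 3.8e-05; -0.57 in the authors' normalized values), while its other probes gave -0.67 (adjusted p = 0.023) and 0.20 (adjusted p = 0.41). GCLC, the catalytic subunit of glutamate-cysteine ligase, fell by 0.57 (SE 0.19, adjusted p = 0.032), and its other probe gave -0.50 (adjusted p = 0.17). The call of its brightest probe was lost without any 1 of Jurkat CSE replicates 1 and 2 and control replicates 3 and 11. It was also lost in the authors' normalized values (-0.41, adjusted p = 0.076), without background correction (-0.44, adjusted p = 0.059) and without the detection filter (adjusted p = 0.068). The other GCLM probe passed in both lines, at 1.55 in DLD-1 and -0.79 in Jurkat (adjusted p = 3.4e-04 and 0.036), whereas the brightest passed in DLD-1. The CSE effects differed between the lines by 1.79 for SRXN1, 2.00 for GCLM and 1.78 for MAFG (SE 0.36, 0.40 and 0.37, adjusted p = 0.0018, 0.0017 and 0.0028). Within BeadChips 1, 2 and 3 these differences were 0.66, 3.06 and 0.84 for SRXN1 and 0.90, 3.11 and 0.88 for GCLM. For MAFG they were 0.19, 3.12 and 1.27. On BeadChip 1 none of them passed (adjusted p = 0.65 for SRXN1, 0.64 for GCLM and 0.95 for MAFG). The SLC7A11 probe was not well above background on any Jurkat array, nor the BACH2 probe on any DLD-1 array, so their effects are not compared between the lines.

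**Figure D4:**
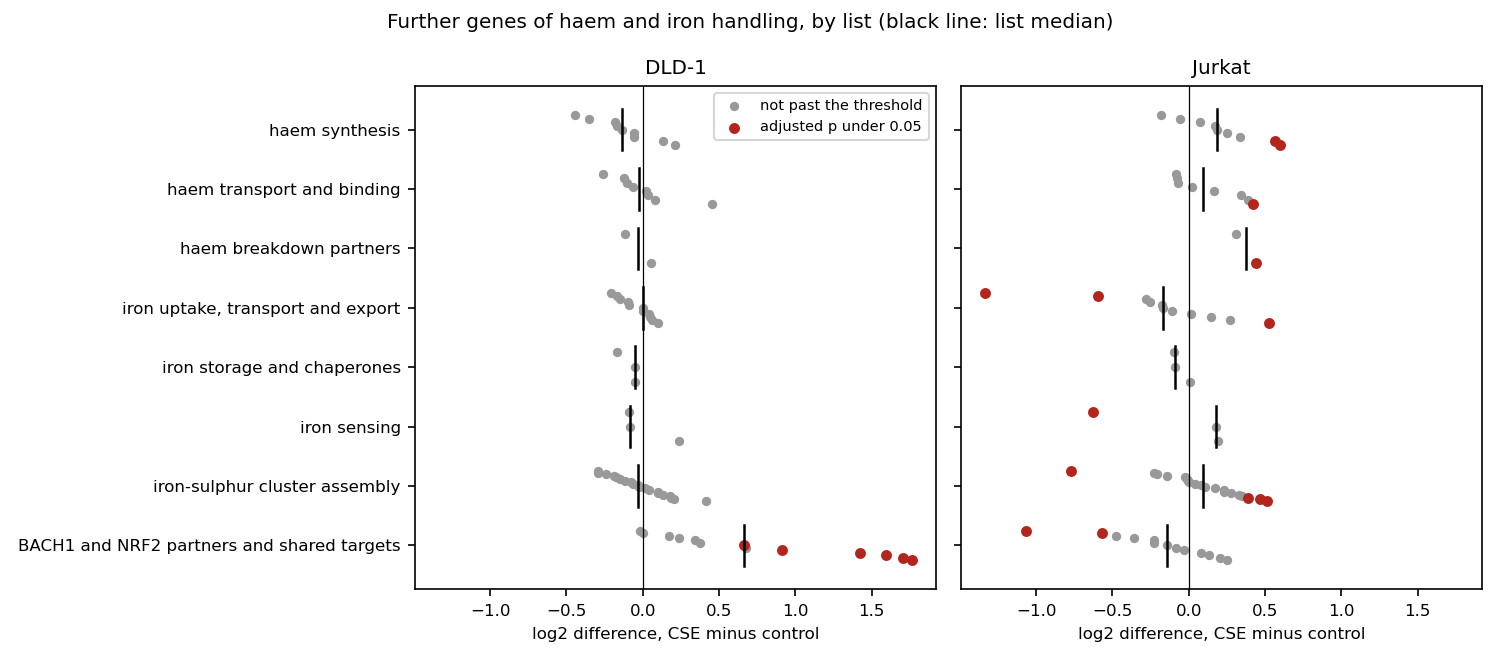
Log2 difference of CSE against control (x axis) for each measured gene of 8 lists (y axis) in DLD-1 and Jurkat. Points are genes, red with adjusted p under 0.05, and black lines list medians. In DLD-1 the 6 genes that passed stand in the list of BACH1 and NRF2 partners and shared targets, and in Jurkat SLC40A1 at -1.33 and BACH2 at -1.06 lie lowest.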

How the data were processed

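The authors' deposited bead table gives, for 47323 probes, an average bead intensity that the file headers call non-normalized, and beside it a deposited detection p-value per array. A second deposited table holds the authors' processed intensity values, on a linear scale with nearly equal array medians and therefore taken as normalized, and it ranks the probes as the bead table does on 36 of 36 arrays. The sources used here name no software for either. All per-sample columns were used.

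From the bead table, limma (3.58.1, R 4.3.3) removed background by a normal-exponential fit based on the detection p-values (offset 16), then quantile-normalized the arrays and took log2. Probes detected (p under 0.05) on at least 6 arrays entered a limma model of the 4 group means over all 36 arrays, with Benjamini-Hochberg adjustment over 22612 probes and a threshold of 0.05. The fit was tested on simulated data. Differences of means were also tested by exact permutation, two-sided and unadjusted.

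Every member probe is described. From each list up to 4 genes per line and direction with the smallest adjusted p are named. Members and lists were chosen with earlier results of these data known. RefSeq (GRCh38.p14) supplied current names and promoter sequences, since the files state no build. Of 16090 genes, it named 10824 through the symbol, 1248 through an earlier symbol and 1152 through the gene ID, and the remaining 2866 keep the file's name. Groups came from the source label, and replicate numbers only name arrays. Alternatives covered scaling, background, the authors' values, the filter, the prior, the BeadChip, the probe per gene and leaving out each array.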

Additional observations from a re-analysis of the deposited data

Results flagged for a closer look

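HMOX1 on Jurkat CSE replicate 5 stood at 6.47, apart from the other 5 arrays of its group, of which the nearest was at 5.34. The array sits on BeadChip 3, and HMOX1 was detected there. FTL probe 5810328 on DLD-1 CSE replicate 6 stood at 13.82, below the nearest array at 14.19. That array is the 1 DLD-1 CSE array of BeadChip 3. In all, 24 pairs of a member probe and a CSE group were looked at and 2 held such an array, where chance gives about 1 in 20.

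The CSE effect on HMOX1 was larger in DLD-1 than in Jurkat by 3.97, and that on SLC11A2 differed by 0.94, SLC11A2 having fallen in Jurkat. Both differences passed the interaction test given in the report.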

How the results depend on the processing

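No paired analysis was possible because the replicate numbers were given in accession order and pair nothing. Of 9 tested member probes, the number that passed in DLD-1 was 1, but 2 with the authors' normalized values (BLVRB added), 3 within BeadChip 2 (FTH1 and TFRC added) and 0 within BeadChip 3, and it stayed at 1 whichever array was left out. In Jurkat it was 4, but 1, 1 and 0 within BeadChips 1, 2 and 3, and between 2 and 4 with 1 array left out, 2 without Jurkat CSE replicate 1. For the difference of effects it was 2, but 1, 1 and 0 within BeadChips, and between 2 and 3 with 1 array left out. For control DLD-1 against control Jurkat it was 9 in each of these leave-one-out fits and 8 within BeadChip 3, where SLC11A2 did not pass (0.52, adjusted p = 0.078). Fits within a BeadChip hold 12 arrays, fewer than the 36 of the full fit, and a lone CSE array is assumed there to vary like the other groups. With all arrays kept, FTL probe 5810328 in Jurkat missed the threshold with median scaling (adjusted p = 0.073) and with BeadChip fitted as a block (adjusted p = 0.051). No called member value changed sign under any alternative. Among list genes, SLC7A11 in DLD-1 was -0.28 within BeadChip 3, where 1 DLD-1 CSE array stands. In the authors' normalized values MAFG and SLC7A11 in DLD-1 were 0.85 and 0.69, and in Jurkat ALAS1 was 0.19, POR 0.18, PPOX 0.27, CIAO3 0.33, NUBP2 0.25 and SLC25A37 -0.38, each more than 1.5 times nearer 0. The MAFG difference between the lines was 1.003 there. NFE2L2 and TXNRD1, not described above, passed in DLD-1 but not in 2 and 6 of 36 fits without 1 array. Median scaling moved the median of all probes by less than 0.1. HMOX1, HMOX2 and the BACH1 probes are limited by their signal over background in Jurkat. BLVRB and SLC11A2 were detected on every Jurkat array but also had low bead intensity there. It was 115.5 to 171.4 for BLVRB in controls and 141.3 to 174.0 with CSE. For SLC11A2 it was 155.2 to 332.5 in controls and 116.8 to 175.9 with CSE. Their Jurkat differences were nearer 0 in the authors' normalized values (0.20 and -0.40).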

Other observations

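Among named genes, the 5 whose values followed HMOX1 most closely over the 36 arrays were SRXN1 (Pearson r 0.93), FAM43A (0.92), CYP1A1 (0.91), GCNT3 (0.90) and FBXO30 (0.90). The r describes points that share 4 groups and 3 BeadChips and takes in the gap between the groups. With CSE in DLD-1, FAM43A rose by 2.05 (SE 0.15, adjusted p = 2.6e-12), GCNT3 by 1.48 (SE 0.26, adjusted p = 3.3e-04) and FBXO30 by 1.40 (SE 0.23, adjusted p = 1.2e-04). In Jurkat none of the 5 passed. FAM43A, CYP1A1 and GCNT3 were detected on 0 of 18 Jurkat arrays.

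Of the 11 tested ferritin heavy chain-like probes, 9 were higher in control DLD-1 than in control Jurkat cells with adjusted p under 0.05. Over all tested probes 60.0% passed in this comparison, in either direction. All 11 differences were positive, between 0.13 and 1.49.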
